A study of Homo sapiens with 24 samples.

Results

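The collagen genes are the protein-coding genes of the hg19 (GRCh37) annotation whose symbol is COL, a number, A, and a number. They number 44 of the 20098 protein-coding genes, and each was included by its symbol and not by a peak value. Flag ChIP-seq, in which an antibody against the Flag tag pulls down the DNA that a tagged protein is cross-linked to, was carried out in the MCF-10A–ER-Src line. These are nontransformed breast epithelial cells that carry the Src oncoprotein fused to a ligand-binding domain of the estrogen receptor, so that tamoxifen switches Src on and transforms them. All cells carried this fusion and were infected with a retroviral vector for either S100A8 or S100A9 with a Flag tag at the C terminus. The antibody thus pulled down the introduced protein, but the study reports that S100A8-Flag also interacts with the cells' own S100A9 in nuclear extract. Complexes with the cells' own proteins may therefore be included. Cells received ethanol (EtOH) as the vehicle or 1 μM 4-hydroxytamoxifen (TAM), and both were collected after 24 hours. There were 11 peak lists, 5 for S100A8-Flag (EtOH replicates 1 and 2, TAM replicates 1 to 3) and 6 for S100A9-Flag, with 3 replicates per treatment. The lists hold no RNA levels, so the identity of the cells was not checked against marker genes.

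Collagens are triple-helical proteins of the extracellular matrix. The fibril-forming types build the tensile fibers of connective tissue, the fibril-associated types with interrupted triple helices (FACITs) decorate these fibers, and type IV chains form the sheet of the basement membrane on which breast epithelium rests. Type VII collagen forms anchoring fibrils that fasten this sheet to the tissue beneath, type XVII is a transmembrane collagen of hemidesmosomes, and the endostatin-bearing multiplexins XV and XVIII lie in or near basement membranes. S100A8 and S100A9 are small calcium-binding proteins best known from inflammation, and the question put to the collagen genes is whether the tagged proteins were found at them and whether this differed between EtOH and TAM or between the proteins.

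A peak was scored when its −log10 q value was at least 7 and was assigned by its summit, the base with the highest signal. The promoter of a gene reaches from 1500 bp upstream to 250 bp downstream of any annotated transcription start site (TSS), the gene body is the rest of the gene, and the window within 20 kb holds the gene, its promoters, and 20 kb on either side. Each EtOH library had between 1853 and 4609 scored peaks and each TAM library between 21518 and 40735. The lists give no read numbers, so from them a lower depth of the EtOH libraries cannot be told apart from weaker binding, and every count below moves with this difference. The study itself reports that TAM strongly raised the tagged proteins in the nucleus and that binding rose at nearly every site. Those measurements were not repeated here. S100A9-Flag EtOH replicate 2 had the fewest scored peaks and S100A9-Flag TAM replicate 3 the most.

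Scored peaks near collagen genes were sparse in EtOH and common in TAM, as were scored peaks in general. A collagen gene with a scored peak within 20 kb was found 8.4 ± 3.65 times per EtOH library (SD, n = 5, range 2 to 11) and 32.3 ± 3.56 times per TAM library (SD, n = 6, range 29 to 39), and the groups did not overlap. This is 19.1 ± 8.29% and 73.5 ± 8.09% of the collagen genes, beside 24.2 ± 6.12% and 72.1 ± 5.06% of all genes. The groups did not overlap for all genes either, with ranges of 13.8 to 28.4% in EtOH and 66.6 to 81.1% in TAM. The distinct scored peaks in these windows made up 24.6 ± 8.13 of every 10000 scored peaks of an EtOH library and 29.8 ± 3.21 of a TAM library, a difference smaller than the spread among EtOH libraries. All but COL3A1, which encodes the fibril-forming chain of type III collagen, had a scored peak within 20 kb in at least 1 library. COL5A2, COL4A5, and COL6A5 had 1 such peak in 1 TAM library each, and COL24A1 had 2 peaks in 1 TAM library.

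**Figure D1:**
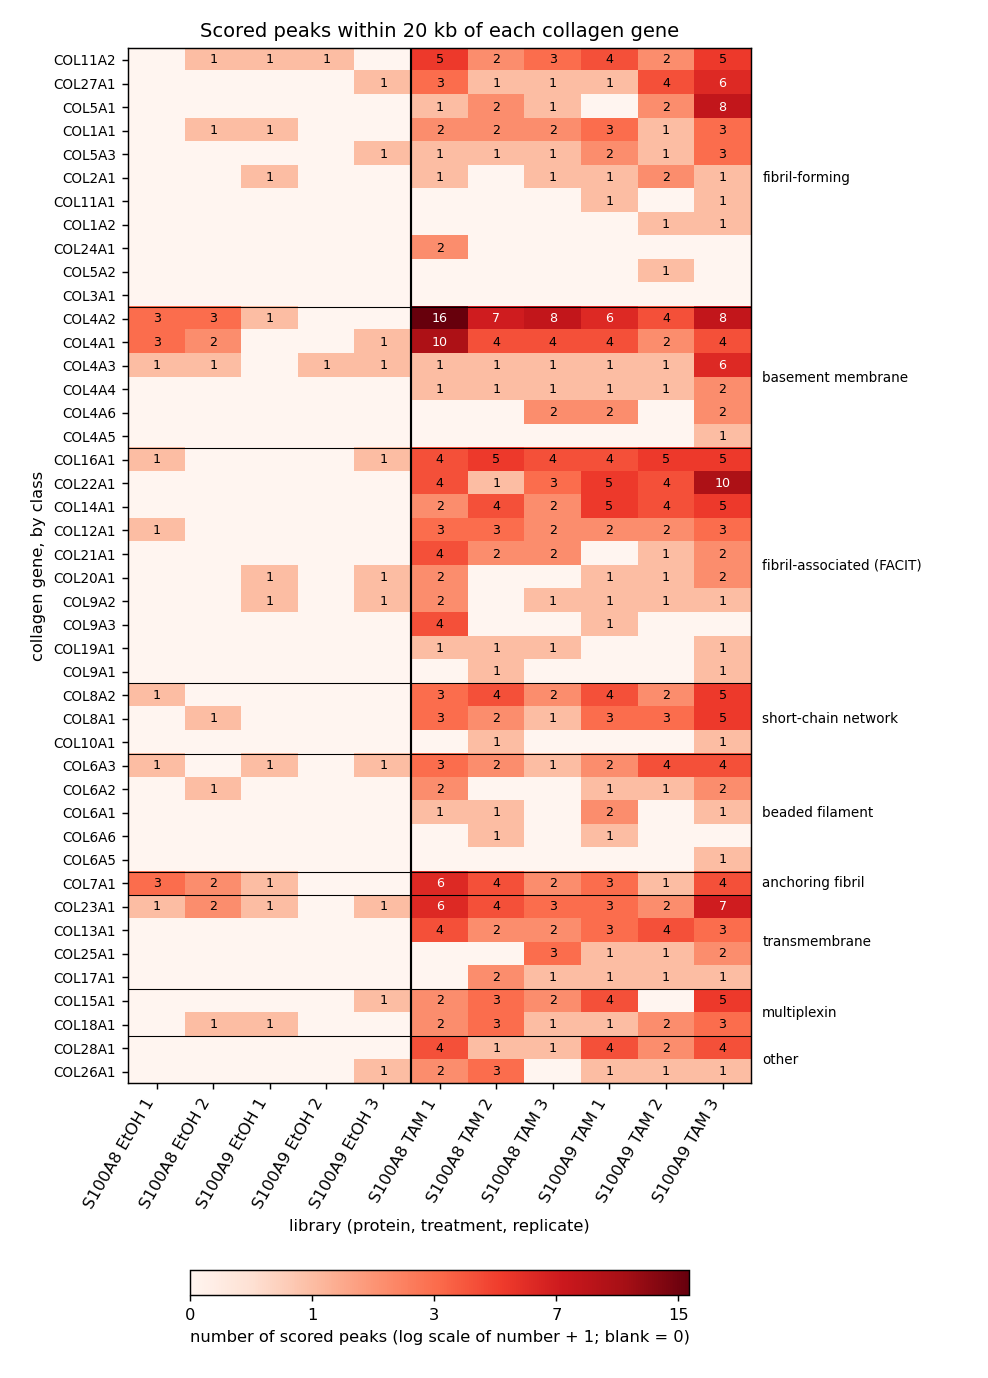
Number of scored peaks within 20 kb of each of the 44 collagen genes (rows, grouped by collagen class) in each of the 11 libraries (columns, EtOH left and TAM right of the line), with each number printed in its cell and blank cells for 0. COL4A2 has 4 to 16 peaks in the TAM libraries, and COL3A1 is blank throughout.

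The promoters of collagen genes held scored peaks less often than those of the average gene, and their gene bodies more often. In the TAM libraries, 21.2 ± 5.12% of collagen genes had a scored promoter peak against 39.0 ± 5.43% of all genes (SD, n = 6), and the collagen share was the lower in every library. In the gene body the shares were 51.1 ± 8.47% of collagen genes and 30.4 ± 5.02% of all genes. Within 20 kb they were 73.5 ± 8.09% and 72.1 ± 5.06%, closer than the spread among libraries. Collagen genes are long, with a median length of 145 kb against 27.3 kb for all genes, while the median number of TSSs was 3 in both sets. Confident sites, meaning regions with scored peaks in at least 2 replicates of 1 condition, were merged over the 4 conditions into 30322 sites. Collagen windows held 1.02 of them per 100 kb and those of all genes 1.97 per 100 kb, so that the higher gene body share came with longer genes and a lower density of sites. Among genes of 100 to 300 kb, 5 of 19 collagen genes (26.3%) and 52.8% of 2836 genes in all had a confident promoter site. In the same band gene body sites were confident at 42.1% of collagen genes and 43.0% of all genes in S100A8-Flag TAM and at 63.2% and 52.6% in S100A9-Flag TAM, so the gene body shares lay closer than without regard to length. The density was 0.946 and 1.31 sites per 100 kb.

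**Figure D2:**
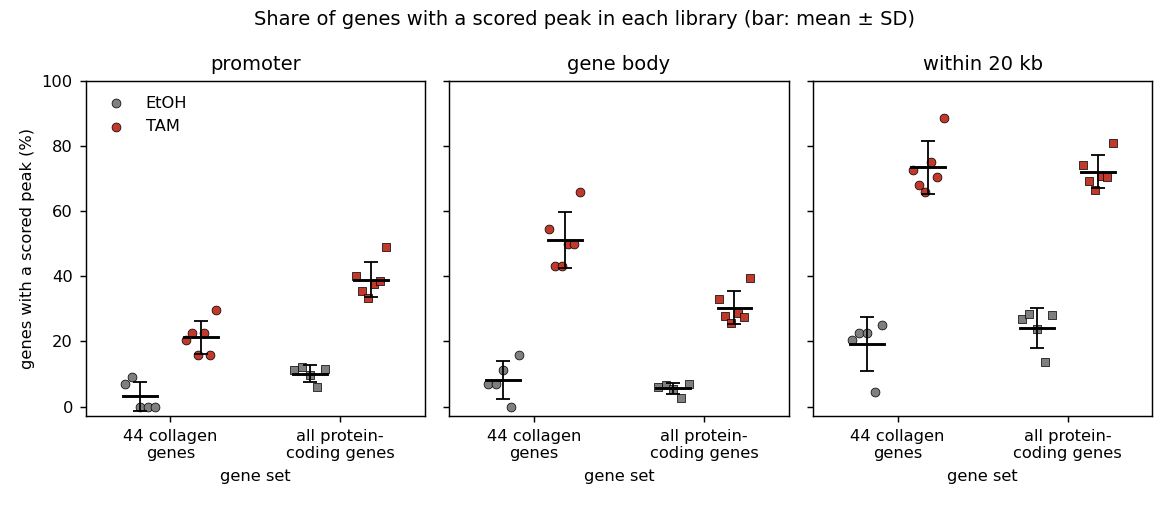
Percentage of the 44 collagen genes (circles) and of all protein-coding genes (squares) with a scored peak at the promoter, in the gene body, or within 20 kb, with 1 point per library, EtOH in gray (n = 5), TAM in red (n = 6), and black bars for the mean ± SD. In TAM the collagen genes lie lower than all genes at promoters (21.2% and 39.0%), higher in gene bodies (51.1% and 30.4%), and level with them within 20 kb.

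Confident promoter sites were found at 10 collagen genes, which is 22.7% of them, beside 46.4% of all genes. In S100A8-Flag TAM they numbered 8 of 44 (18.2%, with 34.4% of all genes) and in S100A9-Flag TAM also 8 of 44 (18.2%, with 41.5% of all genes). Without S100A9-Flag TAM replicate 3 the latter number was 5. COL12A1, COL14A1, COL16A1, COL1A1, COL27A1, and COL7A1 had such a site in both. In EtOH only COL4A1 and COL4A2 had one, in S100A8-Flag (2 of 44, with 4.19% of all genes), whereas S100A9-Flag EtOH had none (0 of 44, with 4.84% of all genes) and no scored collagen promoter peak in any of its 3 libraries. By class, they were at 3 of 10 FACIT genes in S100A8-Flag TAM and 4 of 10 in S100A9-Flag TAM, at 2 of 11 fibril-forming genes in each, at 2 of 6 basement membrane genes in S100A8-Flag TAM and 0 of 6 in S100A9-Flag TAM, and at COL7A1 in both.

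Sequences of 7 of the 11 collagen promoter sites are shown, so that the bound stretches can be read beside the start sites, and those of COL12A1, COL14A1, and COL22A1 are not shown. Each is hg19 sequence of the plus strand, 50 bases on either side of the summit, and is cut where an annotated exon begins. Capitals mark matches to 7 motifs searched on both strands (AP-1, TGACTCA or TGAGTCA; ETS, CGGAAG; KLF/SP1, CCCCGCCC; CREB, TGACGTCA; C/EBP, TTACNNAA or TTGCNNAA; STAT3; and CTCF), none of which is contained in another. Of the 85 confident sites in collagen windows, 74 were searched, without the 11 at COL14A1 and COL22A1.
COL1A1, chr17:48278169-48278269: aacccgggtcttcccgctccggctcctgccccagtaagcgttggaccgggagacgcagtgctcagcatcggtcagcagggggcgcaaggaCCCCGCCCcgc
COL27A1, chr9:116917703-116917803: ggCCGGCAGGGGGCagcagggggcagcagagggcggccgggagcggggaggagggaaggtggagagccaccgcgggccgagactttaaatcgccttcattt
COL4A1 and COL4A2, chr13:110959505-110959555: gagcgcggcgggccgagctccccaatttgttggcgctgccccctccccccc
COL16A1, internal start, chr1:32132223-32132323: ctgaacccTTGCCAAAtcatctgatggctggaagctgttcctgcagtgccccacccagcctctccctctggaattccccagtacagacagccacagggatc
COL16A1, upstream start, chr1:32170946-32171046: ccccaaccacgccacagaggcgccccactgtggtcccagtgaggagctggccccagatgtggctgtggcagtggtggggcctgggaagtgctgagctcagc
COL7A1, chr3:48633064-48633164: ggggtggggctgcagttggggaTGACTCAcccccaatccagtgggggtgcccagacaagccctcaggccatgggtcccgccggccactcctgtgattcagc
COL13A1, chr10:71560958-71561058: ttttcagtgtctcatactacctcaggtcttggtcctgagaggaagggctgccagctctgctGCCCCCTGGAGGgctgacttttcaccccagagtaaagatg
The COL7A1 sequence holds an AP-1 match, which 4.72% of all 9459 confident promoter sites have. The COL27A1 and COL13A1 sequences each hold a CTCF match, found in 5.04% of promoter sites, the COL1A1 sequence holds a KLF/SP1 match (13.4%), and the first COL16A1 sequence a C/EBP match (4.30%). A match describes these letters and does not show that a factor was bound.

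COL1A1 encodes the main chain of type I collagen, the fibril of skin, bone, and tendon stroma. Its site (chr17:48277681-48278354) lay in an intron, 667 bp upstream of an internal TSS, and not at the 5′ end of the gene. It had a scored peak in 6 of 6 TAM libraries and 1 of 5 EtOH libraries, with a fold enrichment over input of 6.01 to 11.7. The other 4 EtOH libraries listed a weaker peak there, with −log10 q values of 4.74, 3.13, 1.94, and 2.56, so a peak was present in all 11 lists and the threshold separated them. COL27A1, a fibril-forming chain of cartilage, had its site (chr9:116917600-116917928) 64 bp upstream of a TSS. It was scored in 3 of 3 S100A8-Flag and 2 of 3 S100A9-Flag TAM libraries and in no EtOH library, with a fold enrichment of 7.44 to 14.9.

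COL4A1 and COL4A2 encode the common chains of basement membrane collagen and are divided by a short shared promoter from which they are transcribed in opposite directions. Their joint site (chr13:110959176-110959760) had its summit 1 bp outside COL4A1 and 100 bp upstream of a COL4A2 TSS. It was scored in all 5 S100A8-Flag libraries, with −log10 q values of 8.80 and 9.14 in EtOH and of 13.7, 12.4, and 16.6 in TAM. Among the 6 S100A9-Flag libraries it was scored in TAM replicate 3 alone (10.4), and the values in TAM replicates 1 and 2 were 6.28 and 6.94, just under the threshold. In S100A9-Flag EtOH they were 3.62 and 4.79, and replicate 3 listed no peak there. The site was therefore listed in 10 of 11 libraries, and the split between the proteins in scored peaks rests in part on values next to the threshold.

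Of the FACIT genes, COL12A1, which encodes a chain that binds the surface of type I fibrils, had the promoter site nearest to a TSS (chr6:75915594-75916129, 9 bp upstream). It was scored in 6 of 6 TAM libraries and in S100A8-Flag EtOH replicate 1, with −log10 q values of 9.71 to 26.3 in TAM and of 15.01 in that EtOH library. COL16A1 had a site 591 bp upstream of an internal TSS (chr1:32131964-32132428) that was scored in 6 of 6 TAM libraries and in 0 of 5 EtOH libraries. Its second site, 1076 bp upstream of another TSS (chr1:32170883-32171077), was scored in 1 S100A8-Flag and 2 S100A9-Flag TAM libraries. COL14A1 had sites 1425 bp and 930 bp upstream of internal TSSs, each scored in 5 of 6 TAM libraries and no EtOH library. COL22A1, whose product lies at tissue junctions, had a site 534 bp upstream of a TSS in 2 S100A9-Flag TAM libraries. The sites at COL1A1 and COL14A1 and the first at COL16A1 thus lay within the gene. With the 5′ end of each gene as the only TSS, confident promoter sites in S100A8-Flag TAM fell from 8 to 4 collagen genes.

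COL7A1, the anchoring fibril gene, had its promoter site (chr3:48632985-48633443) 352 bp upstream of a TSS, with scored peaks in 2 of 3 TAM libraries of each protein and in 1 EtOH library. The TAM libraries without a scored peak, S100A8-Flag replicate 3 and S100A9-Flag replicate 2, had −log10 q values of 6.22 each and so lay just below the threshold. COL13A1, a transmembrane collagen of focal contacts and cell junctions, had a site 628 bp upstream of a TSS (chr10:71560898-71561196) in 3 of 3 S100A9-Flag and 1 of 3 S100A8-Flag TAM libraries. No EtOH library had a scored peak there.

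**Figure D3:**
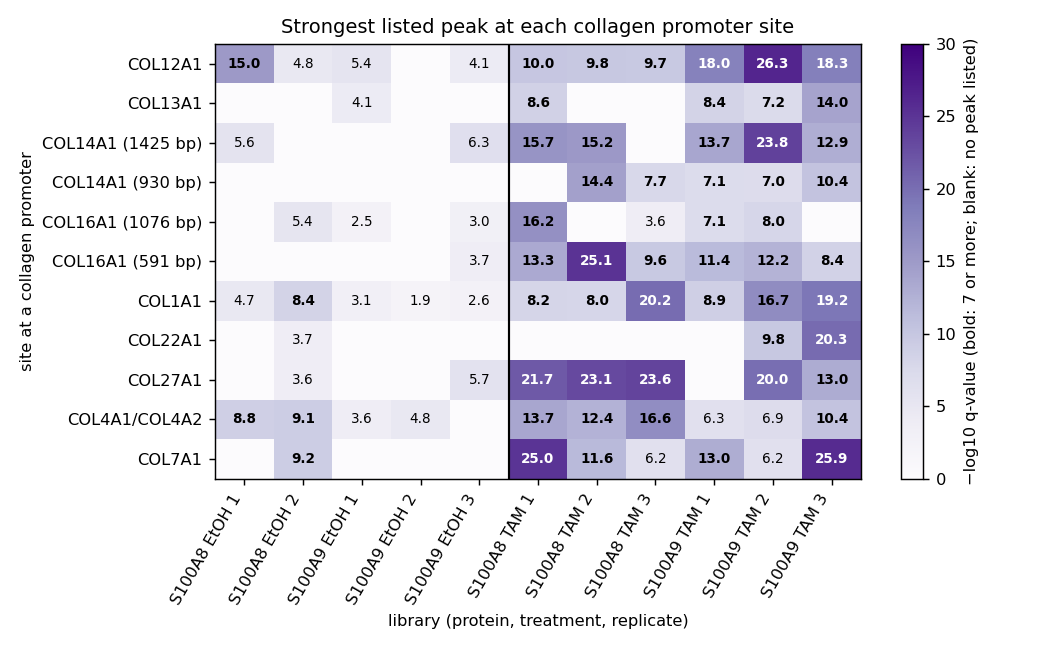
−log10 q value of the strongest listed peak at each of the 11 confident sites at collagen promoters (rows, with the distance to the TSS in bp where a gene has 2 sites) in each library (columns), bold from 7, the scoring threshold, and blank where no peak is listed. The row of COL1A1 has a listed peak in all 11 libraries, and the row of COL4A1 and COL4A2 in 10, with values of 6.28 and 6.94 in S100A9-Flag TAM replicates 1 and 2.

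Most confident sites near collagen genes lay away from collagen promoters, and most sites in general lay away from promoters. Of all 30322 confident sites, 31.2% lay at a promoter of any gene. The collagen windows held 85 of the confident sites, at 33 genes (75%, with 76.5% of all genes), of which 11 lay at collagen promoters, 46 in gene bodies, and 28 in the flanks alone. Of the gene body sites 44 lay in introns and 2 in coding exons, those of COL11A1 and COL14A1. The split into gene bodies, flanks, introns, and exons was not counted for all genes. The nearest TSS belonged to the collagen gene for 68 sites (80%), and 10 sites lay at the promoter of another gene. Such a site at the MFF promoter (chr2:228189769-228190557), 17498 bp from the nearest TSS of COL4A3, was scored in 10 of 11 libraries and accounts for the peaks of COL4A3 in EtOH. Scored peaks in all 6 TAM libraries were found at 12 of the 85 sites (14.1%, with 14.3% of all confident sites), and in any EtOH library at 26 (30.6%, with 31.1%). These shares differ little from those of all sites.

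In TAM, gene body sites were confident at 16 of 44 collagen genes for S100A8-Flag (36.4%, with 21.8% of all genes) and at 21 of 44 for S100A9-Flag (47.7%, with 27.5% of all genes). In EtOH they were 0 of 44 (1.49% of all genes) and 2 of 44 (1.70% of all genes), the latter at COL6A3, the large chain of type VI microfibrils, and COL9A2, a FACIT chain of cartilage. The COL9A2 site (chr1:40780903-40781251), 669 bp downstream of a TSS, was scored in 2 S100A9-Flag EtOH libraries and in 5 of 6 TAM libraries. The COL6A3 site (chr2:238263649-238263827) was the reverse of the usual pattern, with 2 of 3 S100A9-Flag EtOH libraries at −log10 q values of 7.72 and 8.02 and 1 of 6 TAM libraries at 13.7. Within 20 kb, confident sites were at 26 of 44 genes in S100A8-Flag TAM (59.1%, with 64.3% of all genes) and 32 of 44 in S100A9-Flag TAM (72.7%, with 72.5%). Without S100A8-Flag TAM replicate 3 the former number was 17. In EtOH they were at 4 genes in S100A8-Flag (COL4A1, COL4A2, COL4A3, and COL7A1; 9.44% of all genes had one) and at 3 in S100A9-Flag (COL4A3, COL6A3, and COL9A2; 10.8% of all genes).

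Of the sites away from any promoter, 7 had scored peaks in all 6 TAM libraries, and 6 are shown, in the format used above, as the most regularly scored collagen sequences outside promoters.
COL16A1 intron, chr1:32155570-32155637: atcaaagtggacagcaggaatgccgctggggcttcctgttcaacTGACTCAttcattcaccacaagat
COL28A1 intron, chr7:7478674-7478774: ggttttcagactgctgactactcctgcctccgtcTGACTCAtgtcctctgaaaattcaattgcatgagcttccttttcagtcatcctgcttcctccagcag
COL23A1 intron, chr5:177707085-177707185: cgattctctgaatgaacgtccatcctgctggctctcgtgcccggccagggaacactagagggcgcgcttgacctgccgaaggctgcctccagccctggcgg
COL4A2 intron, 105.2 kb site, chr13:111064698-111064798: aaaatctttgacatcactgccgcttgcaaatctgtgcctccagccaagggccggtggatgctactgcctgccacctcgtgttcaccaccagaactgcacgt
COL4A2 intron, 40.8 kb site, chr13:111000238-111000338: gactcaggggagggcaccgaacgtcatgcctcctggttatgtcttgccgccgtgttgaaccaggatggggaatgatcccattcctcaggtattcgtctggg
COL11A2 flank, chr6:33129376-33129476: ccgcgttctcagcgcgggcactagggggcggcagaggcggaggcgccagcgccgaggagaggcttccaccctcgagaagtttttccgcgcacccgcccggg
The COL16A1 sequence lay 6238 bp and the COL28A1 sequence 1658 bp upstream of an internal TSS, and each holds an AP-1 match. Among the distal confident sites, 12 of 56 collagen sites (21.4%) and 26.1% of all 20863 had an AP-1 match, and a CTCF match was in 14.3% and 11.3%. The COL4A2 site 105.2 kb from the COL4A1 start had fold enrichments of 7.15 to 19.1 and was scored in no EtOH library, although both S100A8-Flag EtOH libraries listed a peak there with −log10 q values of 4.38 and 4.80. The site in the COL11A2 flank was scored in 6 TAM libraries and in 1 EtOH library of each protein, at fold enrichments of 6.70 to 16.6. The site not shown lay in an intron of COL22A1 and reached a fold enrichment of 20.3 in S100A9-Flag TAM replicate 2.

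COL4A2 had the highest number of scored peaks within 20 kb in TAM, with a mean of 8.17 ± 4.12 (SD, n = 6), and COL4A1 had 4.67 ± 2.73. Without S100A8-Flag TAM replicate 1 these means were 6.6 and 3.6, and that of COL16A1 was 4.6. Their windows are long, and per 100 kb of window COL4A2 had 3.30 and COL4A1 2.35 scored peaks, below COL11A2 with 5.01, COL16A1 with 4.89, and COL8A2 with 4.76. COL4A2 had 3 and 3 scored peaks in S100A8-Flag EtOH, 1, 0, and 0 in S100A9-Flag EtOH, 16, 7, and 8 in S100A8-Flag TAM, and 6, 4, and 8 in S100A9-Flag TAM. COL4A1 had 3 and 2 in S100A8-Flag EtOH, 0, 0, and 1 in S100A9-Flag EtOH, 10, 4, and 4 in S100A8-Flag TAM, and 4, 2, and 4 in S100A9-Flag TAM. Every TAM library exceeded every EtOH library at COL4A2, but not at COL4A1, where S100A9-Flag TAM replicate 2 lay below S100A8-Flag EtOH replicate 1. The windows of the 2 genes overlap and share peaks, so they are not independent. Over both genes there were 11 confident sites, of which 7 lay in COL4A2 or past its 3′ end, and a cluster of 3 lay 36.3 to 40.8 kb from the COL4A1 start.

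**Figure D4:**
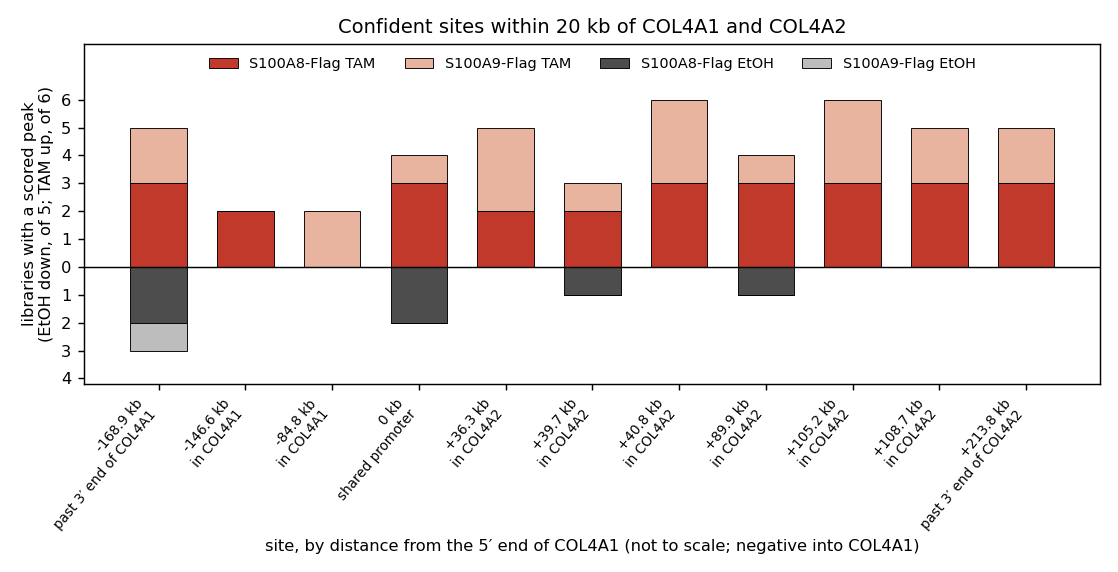
Number of libraries with a scored peak at each of the 11 confident sites within 20 kb of COL4A1 and COL4A2, in order along the chromosome and labeled by distance in kb from the 5′ end of COL4A1, with TAM libraries upward (of 6) and EtOH libraries downward (of 5), stacked by protein. The sites at 40.8 and 105.2 kb were scored in all 6 TAM libraries and no EtOH library, and the site 168.9 kb away, past the 3′ end of COL4A1, was scored in 5 TAM and 3 EtOH libraries.

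TAM and EtOH were compared at every gene by the mean number of scored peaks per library, with exact permutation of the treatment labels within each protein, two-sided, and Benjamini-Hochberg adjustment over all genes tested. Within 20 kb, 12 of the 39 collagen genes tested (30.8%) had more scored peaks in TAM at an adjusted p of 0.05 or less, and 0 had fewer. Of all 16771 genes tested 29.4% had more and 0% had fewer. The shares of collagen genes are thus near those of genes in general. Shares of all genes set beside the results of this test are likewise shares of the genes tested. The 12 genes were COL11A2 of the fibril-forming class, COL4A1, COL4A2, and COL4A4 of the basement membrane, the FACIT genes COL12A1, COL14A1, COL16A1, and COL22A1, COL8A2 of the short-chain network class, the transmembrane COL13A1 and COL23A1, and COL28A1. Each had p = 0.01 by the exact permutation test, the smallest that the 200 arrangements can give, and an adjusted p of 0.0340, and 22 of the 39 genes (56.4%) had an unadjusted p under 0.05, with 58.0% of all genes. With each library's counts put per 10000 of its scored peaks, 0 of the 39 collagen genes and 0 genes in all were called, with 8 collagen genes at an unadjusted p under 0.05, and with the 1853 top peaks of each library 0 of 13 tested were called, with 0 at an unadjusted p under 0.05. The share of all genes at that unadjusted p was not counted at these settings, so the 8 cannot be set against genes in general. A call needs many genes to share the smallest p of the exact permutation test, since the adjustment runs over all genes tested. The 12 calls rest on the 29.4% of all genes tested that shared it. A result of 0 calls after scaling, or at another setting below, does not show that no gene differed. The comparison thus shows more scored peaks in TAM and cannot tell a gain at these genes from the larger lists.

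COL16A1, whose chain associates with fibrils in several tissues, had 4 to 5 scored peaks within 20 kb in each TAM library and 1, 0, 0, 0, and 1 in the EtOH libraries, which gave 4.5 ± 0.548 (SD, n = 6) and 0.4 ± 0.548 (SD, n = 5). Its treatments did not overlap. COL22A1 had 0 scored peaks in all EtOH libraries, 4, 1, and 3 in S100A8-Flag TAM, and 5, 4, and 10 in S100A9-Flag TAM. COL14A1, a FACIT of fibril surfaces, also had 0 in all EtOH libraries, with 2, 4, and 2 in S100A8-Flag TAM and 5, 4, and 5 in S100A9-Flag TAM. COL12A1 had 1 in S100A8-Flag EtOH replicate 1, 0 in the other EtOH libraries, and 2 or 3 in each TAM library.

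COL13A1 had 0 scored peaks in the 5 EtOH libraries and 2 to 4 in the 6 TAM libraries (3 ± 0.894, SD). COL28A1, a collagen with von Willebrand factor type A domains, had 0 in EtOH and 1 to 4 in TAM (2.67 ± 1.51, SD). COL4A4, whose chain joins those of COL4A3 and COL4A5 in specialized basement membranes, had 0 in EtOH and 1 or 2 in TAM, and a confident site 14723 bp from its nearest TSS was scored in 5 of the 6 TAM libraries and holds an AP-1 match. For these 3 genes the treatments did not overlap.

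COL8A2, a network-forming chain of endothelial basement membranes, had 1 scored peak in 1 EtOH library and 2 to 5 in the TAM libraries, and 1 of these peaks in every TAM library lay at the promoter of its neighbor ADPRS. COL11A2 had 0 or 1 in EtOH and 2 to 5 in TAM, with sites at the promoters of its neighbors RXRB and RING1 in its window. COL23A1 had 1 and 2 in S100A8-Flag EtOH, 1, 0, and 1 in S100A9-Flag EtOH, and 2 to 7 in TAM, so that its groups met at 2. Every TAM library was above every EtOH library at 10 of the 39 genes within 20 kb (25.4% of all genes tested), at 7 of 30 in the gene body (13.6%), and at 2 of 12 at the promoter, COL14A1 and COL16A1 (5.85%).

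**Figure D5:**
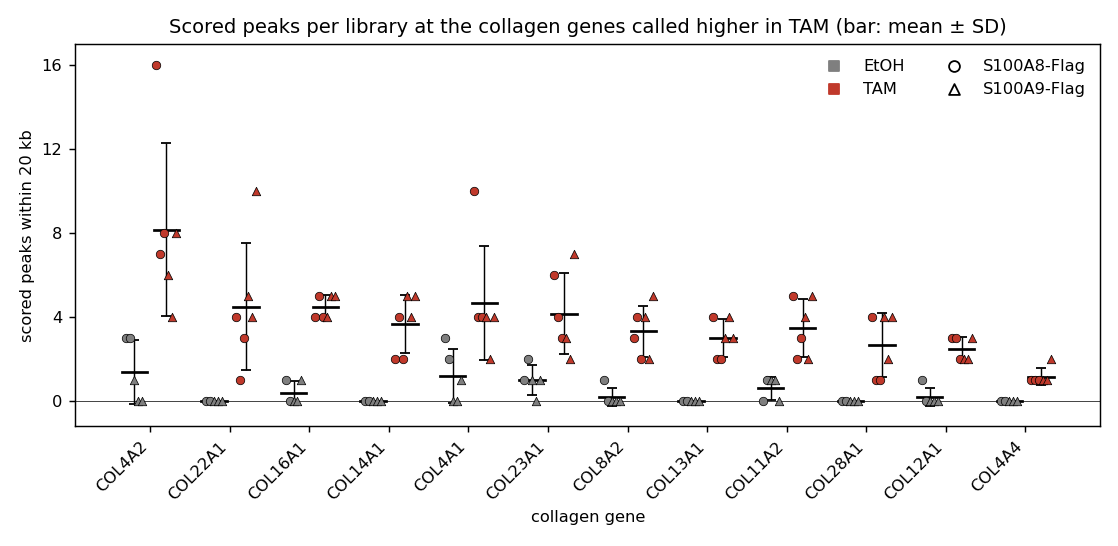
Number of scored peaks within 20 kb in each library at the 12 collagen genes with more peaks in TAM, in order of the difference, with EtOH in gray (n = 5) and TAM in red (n = 6), circles for S100A8-Flag, triangles for S100A9-Flag, and bars for the mean ± SD. The highest points are the 16 peaks of COL4A2 in S100A8-Flag TAM replicate 1 and the 10 of COL22A1 in S100A9-Flag TAM replicate 3.

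At promoters 0 of the 12 collagen genes tested and in gene bodies 0 of 30 were called by this exact permutation test, as were 0% of all genes in both zones. No gene of any kind could pass there with these data, since the smallest p that the arrangements allow was adjusted to 0.160 at promoters and 0.0659 in gene bodies. At an unadjusted p under 0.05 there were 6 promoters (COL12A1, COL13A1, COL14A1, COL16A1, COL1A1, and COL27A1) and 12 gene bodies, all with more peaks in TAM, which is 50% of the promoters tested (23.2% of all 10794 genes tested) and 40% of the gene bodies tested (34.0% of all 8491 genes tested). No gene of any kind had fewer peaks in TAM at this p in either zone, so the direction is not particular to collagen genes. At promoters only 12 of the 44 collagen genes, but 10794 of the 20098 genes, had the scored peaks in 2 libraries needed for testing. The promoter shares therefore do not compare the whole sets. Leaving out S100A8-Flag TAM replicate 2 gave 12 calls of 36 tested within 20 kb (34.5% of all genes) and leaving out replicate 3 gave 14 of 39 (36.4% of all genes). Leaving out any of the other 9 libraries, namely both S100A8-Flag EtOH libraries, S100A8-Flag TAM replicate 1, or any S100A9-Flag library, gave 0 calls among collagen genes and among all genes, with 13 to 20 collagen genes at an unadjusted p under 0.05, and the smallest p that fewer libraries allow is then between 0.0167 and 0.025. The share of all genes at that unadjusted p was not counted, so the 13 to 20 cannot be set against genes in general. Without S100A8-Flag TAM replicate 1 the smallest possible p was 0.0167, the same as without replicate 2 or 3, where genes were called. The reason for the loss of calls without replicate 1 was not tested. A flank of 5 kb gave 0 calls of 34 tested and 0 of all genes, and a flank of 50 kb gave 26 of 42, with 67.6% of all genes.

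COL17A1, the hemidesmosome collagen, had 0 scored peaks in EtOH and 0, 2, 1, 1, 1, and 1 in TAM, with an adjusted p of 0.0585 by the same test. COL7A1 had 3 and 2 scored peaks in S100A8-Flag EtOH, 1, 0, and 0 in S100A9-Flag EtOH, 6, 4, and 2 in S100A8-Flag TAM, and 3, 1, and 4 in S100A9-Flag TAM. Its groups overlapped, with an adjusted p of 0.120. A confident site 3944 bp upstream of COL7A1 (chr3:48636094-48637040) was scored in both S100A8-Flag EtOH libraries and in 1 S100A8-Flag TAM library, but in no S100A9-Flag library.

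S100A9-Flag and S100A8-Flag were compared in the same way within each treatment, and 0 of the 39 collagen genes were called, with 0% of all genes called in either direction. Too few genes reached the smallest p that the exact permutation test allows, 0.01, for any gene to pass the adjustment. The absence of calls therefore does not show that the proteins were alike at these genes. The only collagen gene with an unadjusted p under 0.05 was COL4A2, which had a mean of 3.17 scored peaks over the 6 S100A9-Flag libraries and 7.4 over the 5 S100A8-Flag libraries, with p = 0.03 by the exact permutation test and an adjusted p of 1. Its difference within treatments averaged −3.5 peaks. Of the 85 sites, 34 (40%) were confident in TAM for both proteins, 37 for S100A9-Flag alone, and 12 for S100A8-Flag alone. Among all confident sites these shares were 42.8%, 39.5%, and 17.4%. A site confident for 1 protein is not shown to differ between them.

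The genes that process and bind collagen were counted in the same way. Of 33 genes for collagen modification, folding, export, cleavage, and cross-linking, 31 were tested within 20 kb. In TAM 0 of them had fewer scored peaks (0% of all genes) and 11 had more (35.5%, with 29.4% of all genes). They include P4HA2 and P4HB, subunits of prolyl 4-hydroxylase, BMP1, which cleaves the procollagen C terminus, LOXL2, a lysyl oxidase, and MIA3 (TANGO1), which loads procollagen into transport carriers. P4HA2 had a mean of 7.17 scored peaks in TAM and 1.2 in EtOH, and BMP1 had 5 and 0.2. Confident promoter sites were at 12 of the 33 in S100A8-Flag TAM and at 20 of the 33 in S100A9-Flag TAM, beside 34.4% and 41.5% of all genes. Of 11 collagen receptor genes 9 were tested and 6 had more scored peaks in TAM (66.7%, with 29.4% of all genes), namely the kinase receptors DDR1 and DDR2 and the integrin genes ITGA1, ITGA10, ITGA11, and ITGB1. Confident promoter sites were at 2 and 4 of the 11 receptor genes in S100A8-Flag and S100A9-Flag TAM, beside 34.4% and 41.5% of all genes. Gene length was not matched for either list, and 9 tested receptor genes is a small number. These calls are subject to the same limit of list size as those of the collagen genes.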

How the data were processed

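Per the study's methods and the submitters' processing notes, Bowtie2 placed the reads on hg19, only uniquely mapping reads were used, and MACS2 compared each ChIP library with its own input to find narrow peaks, replicate by replicate. Versions are not given in the sources used here. The deposited lists give each peak's fold enrichment, a ratio to input, and its −log10 p and −log10 q values, and reach down to a q value of 0.05. The series holds no RNA samples, its Pol II and input samples were not analyzed here, and no depth is known.

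Peaks with a −log10 q value of at least 7 on chromosomes 1 to 22 and X were assigned by summit to GENCODE 44 genes lifted to GRCh37. Genes with a scored peak in at least 2 libraries were tested by exact permutation (Python 3.11.15, NumPy 2.4.6, pandas 2.3.3), two-sided by doubling the smaller tail, which was also tested on simulated data. Replicates are labeled as biological. Scored peaks that overlapped by at least 1 bp in at least 2 replicates were merged into confident sites. The collagen genes were found by symbol, but the family, its classes, and the pathway lists were chosen with earlier results of these data known. Genes were named if they had a confident promoter site, were among the 8 with the highest mean TAM count (COL7A1 and COL8A2 tied for the last place), had a confident EtOH site, or had no scored peak. The genes called in TAM, COL17A1, and those with peaks in 1 library were named after their values were seen. Alternatives were every deposited peak, a stricter threshold, equal numbers of top peaks, counts per 10000 scored peaks, other flanks, TSS and overlap definitions, other replicate minimums, each library left out, and the replicate number as a block.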

Additional observations from a re-analysis of the deposited data

How the results depend on the processing

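The number of collagen genes with more scored peaks in TAM within 20 kb was 12. It was 20 of 44 tested with every peak as deposited (46.2% of all genes), 26 of 42 with a flank of 50 kb (67.6% of all genes), and 0 with a flank of 5 kb, with equal numbers of top peaks, per 10000 scored peaks, and with the replicate number as a block, where no gene could pass because the smallest possible p is 0.0625. It ranged from 0 to 14 when each library was left out. The same numbers did not pair the libraries, since deviations from the condition means correlated across treatments, number by number, with an r between −0.0309 and 0.0947. The difference between TAM and EtOH in the number of collagen genes with a scored peak was 23.75 within 20 kb and 7.58 at promoters. The former was 13.5 with every peak as deposited and 1.67 with equal top peaks, and the latter was 0.75 with equal top peaks and 4.83 with the 5′ end as the only TSS. With equal top peaks, 3.6 ± 1.14 collagen genes per EtOH library (SD, n = 5) and 5.33 ± 1.37 per TAM library (SD, n = 6) had a peak, which is 8.18 ± 2.59% and 12.1 ± 3.11% of them, beside 13.6 ± 0.142% and 12.5 ± 0.478% of all genes. The cause of these changes was not tested.

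Confident promoter sites in S100A8-Flag EtOH, at 2 collagen genes, were at 4 with every peak as deposited, 0 with a −log10 q value of at least 10 or equal top peaks, 1 with the 5′ end alone, and 5 with at least 1 replicate. In S100A9-Flag EtOH, 0 became 6 with every peak as deposited. In S100A8-Flag TAM, 8 became 1 with equal top peaks and 4 with the 5′ end alone. In S100A9-Flag TAM, 8 became 0 with equal top peaks, 15 with at least 1 replicate, 5 with every replicate, and 5 to 7 without 1 library. Within 20 kb, the 4 genes in S100A8-Flag EtOH became 14 with every peak as deposited or at least 1 replicate, 0 with a −log10 q value of at least 10 or equal top peaks, and 7 with a flank of 50 kb. The 3 genes in S100A9-Flag EtOH became 19 with every peak as deposited, 6 with a flank of 50 kb, 17 with at least 1 replicate, 0 with every replicate, and 0 to 2 without 1 library. The 26 genes in S100A8-Flag TAM became 17 with a −log10 q value of at least 10, 3 with equal top peaks, 16 with every replicate, and 17 to 22 without 1 library, and the 32 genes in S100A9-Flag TAM became 2 with equal top peaks and 20 with every replicate. Leaving out a library of S100A8-Flag EtOH leaves 1 replicate, and no confident site could be called. A direction could reverse only for the 2 differences between TAM and EtOH, and neither did. Of the alternative values, 133 kept a count equal to the main one or within a fixed ratio of it, or a difference within its spread. Another 33 moved beyond this, 13 gave fewer calls, and 2 gave more. The 133 include the promoter, gene body, and protein comparisons, which called 0 collagen genes in the main setting and 0 again. Agreement at 0 does not show that those results are stable.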

Other observations

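Among the confident sites within 20 kb of a collagen gene that lay at a promoter of any gene and were searched for motifs, 5 of 18 (27.8%) held a CTCF match within 50 bp of the summit, whereas 5.04% of all 9459 promoter sites did. CTCF is an architectural factor that binds insulators and loop anchors. The 5 sites lay at the promoters of COL13A1 and COL27A1 and of the neighboring genes MFF, TMEM106C, and FTCD. The match was singled out after its share was seen among 7 motifs in 2 classes of sites, it was not tested, and 18 sites is a small number. The other motifs had shares in promoter sites of at most 16.7% (ETS, with 17.4% of all promoter sites).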
